A study of Mus musculus with 2 samples.

Results

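The let-7 family was followed through small-RNA sequencing of mouse limb tissue at embryonic day 10.5, when the limb is a bud of mesenchyme under ectoderm. Its members here are the rows of the deposited tables whose Ensembl identifiers carry, in GENCODE M21 (GRCm38), the symbols Mirlet7a-1, Mirlet7a-2, Mirlet7b, Mirlet7c-1, Mirlet7c-2, Mirlet7d, Mirlet7f-2, Mirlet7g, Mirlet7i and Mir98, which came to 10 of 1973 miRNA genes. Of the family, Mirlet7f-1 and Mirlet7e were not analysed here. The study had 1 group of 2 biological replicates, with no treatment or genotype contrast: B6NCrl embryos of both sexes, with limbs pooled from 69 embryos in replicate 1 and from 51 in replicate 2. Because the limbs were pooled, variation between embryos cannot be seen, and the libraries cannot tell fewer cells of a type from less miRNA per cell. With 2 libraries the smallest p that a two-sided exact sign-flip test can give is 0.5, so values are given per library or as mean ± SD without p-values.

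A let-7 gene is transcribed into a long primary RNA, from which Drosha cuts the hairpin and Dicer the mature miRNA of the 5' arm. The mature forms pair with target mRNAs through the seed, bases 2 to 8, and repress genes of growth and of the early embryonic state such as Lin28a, Lin28b and Hmga2. They are known to accumulate as embryonic cells leave the pluripotent state, and the LIN28 proteins hold them back by binding the terminal loop of the precursor, where a GGAG stretch is a known contact.

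All 10 hairpins were matched to RefSeq (GRCm38.p6), and they encode 8 different 5' arm forms of 22 bases. These are shown so that the counts of the genes can be read beside how much their sequences differ. Each is written 5' to 3' with the seed in capitals.

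let-7a (Mirlet7a-1 and Mirlet7a-2): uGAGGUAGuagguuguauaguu
let-7c (Mirlet7c-1 and Mirlet7c-2): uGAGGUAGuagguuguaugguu
let-7f (Mirlet7f-2): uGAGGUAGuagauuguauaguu
let-7b (Mirlet7b): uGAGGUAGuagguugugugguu
let-7d (Mirlet7d): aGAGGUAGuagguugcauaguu
miR-98 (Mir98): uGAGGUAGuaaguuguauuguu
let-7g (Mirlet7g): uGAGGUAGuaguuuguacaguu
let-7i (Mirlet7i): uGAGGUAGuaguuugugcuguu

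The seed GAGGUAG was the same in all 10 members. Over the whole length, 15 of 22 positions held the same base in every form, and the 7 that varied were position 1 and positions 11, 12, 16, 17, 18 and 19. Counted from 1 at the 5' end of let-7a, let-7c carried A19G, let-7f G12A, let-7b A17G and A19G, let-7d U1A and U16C, miR-98 G11A and A19U, let-7g G12U and U18C, and let-7i G12U, A17G, U18C and A19U. Pairs of forms differed at 1 to 6 positions. The forms let-7a, let-7b, let-7c and let-7f each lay 1 mismatch from another of the 8, whereas let-7d, let-7g, let-7i and miR-98 lay at least 2 mismatches from every other one.

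The 3' arms add a second level of identity. Mirlet7a-1 and Mirlet7c-2 differ in their 5' arms but have the same 3' arm sequence, printed here because it leaves Mirlet7c-2 with no arm of its own.

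let-7a-1 3' arm: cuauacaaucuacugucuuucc
let-7c-2 3' arm: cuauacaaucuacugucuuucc

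Mirlet7c-2 therefore shares its 5' arm with Mirlet7c-1 and its 3' arm with Mirlet7a-1, and Mirlet7a-1 shares its 5' arm with Mirlet7a-2. The 3' arm of Mirlet7f-2 was 1 mismatch from that of Mirlet7a-1 and Mirlet7c-2. The 3' arms of Mirlet7a-2, Mirlet7c-1 and Mirlet7b lay 2 mismatches from the nearest window in any of the other RefSeq hairpins, and those of Mirlet7d, Mirlet7g and Mir98 lay 4 and that of Mirlet7i 5 away. The tables count reads per hairpin, so the arms were not separated.

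The layout of the tables is that of counting only reads placed at 1 locus. Multimapping reads, 2202818 in replicate 1 and 1831161 in replicate 2, were given to no gene. Sense counts in genes were nearly equal, 3581672 and 3576482, and CPM are counts per 1000000 of these. Libraries of this tissue held high levels of the Hox-embedded miRNA genes (Mir196b at 63953 ± 14163 CPM, SD, n = 2) and of the mesenchymal Mir214 (18552 ± 2773 CPM), while the liver gene Mir122 was at 15.2 ± 13.6 CPM.

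Mirlet7g and Mirlet7i held most of the counts of the 10 let-7 genes, which leave out multimapping reads. Together they made up 88.5% of the let-7 counts in replicate 1 and 91.6% in replicate 2. Mirlet7g (chromosome 9, 106178840 to 106178927, plus strand, in an intron of Wdr82, which encodes a WD-repeat protein) had 11605 counts or 3240 CPM in replicate 1 and 18808 counts or 5259 CPM in replicate 2, a mean of 4249 ± 1427 CPM (SD, n = 2). It stood at place 52 among the 1973 genes in replicate 1 and at place 28 in replicate 2. Mirlet7i (chromosome 10, 122985640 to 122985724, minus strand, in an exon of the annotated pseudogene D630033A02Rik) had 6567 counts or 1834 CPM and 13182 counts or 3686 CPM, a mean of 2760 ± 1310 CPM. Within each library Mirlet7g was above Mirlet7i, but the ranges of the genes over the libraries overlapped. The log2 ratio of Mirlet7i to Mirlet7g was -0.82 (95% counting interval -0.87 to -0.78) in replicate 1 and -0.51 (-0.55 to -0.48) in replicate 2. The counting intervals of this ratio thus did not overlap between the pools. Intervals are exact binomial throughout and reflect counting error only. They take each read as a separate molecule, which PCR copies of a read are not, so they may be too narrow.

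**Figure D1:**
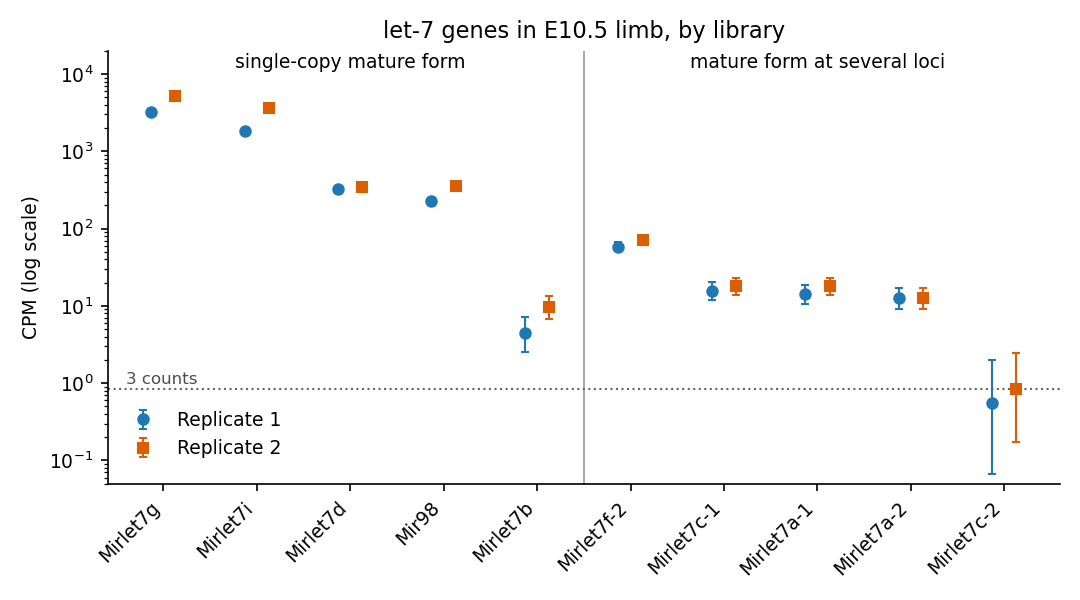
CPM (log scale) of each let-7 gene in replicate 1 (circles) and replicate 2 (squares), with exact binomial intervals; the dotted line is the level of 3 counts. Mirlet7g and Mirlet7i stand at 1834 CPM or above in both libraries, Mirlet7d and Mir98 between 227 and 352 CPM, and Mirlet7c-2 lies at or below 3 counts.

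Of the other single-copy forms, Mirlet7d and Mir98 were at intermediate levels. Mirlet7d (chromosome 13, 48536012 to 48536114, minus strand, in an exon of the noncoding gene 6720427I07Rik) had 1167 and 1226 counts, or 326 and 343 CPM, nearly the same in both libraries. Mir98 (chromosome X, 151913214 to 151913321, plus strand, in an intron of the ubiquitin ligase gene Huwe1) had 812 and 1260 counts, or 227 and 352 CPM. The order of the pair was not settled: the log2 ratio of Mirlet7d to Mir98 was 0.52 (0.39 to 0.65) in replicate 1 and -0.04 (-0.15 to 0.08) in replicate 2.

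Mirlet7b had far fewer counts than the other single-copy forms. The gene (chromosome 15, 85707319 to 85707403, plus strand, in an exon of the noncoding gene Lncppara) had 16 counts in replicate 1 and 35 in replicate 2, or 4.47 CPM (2.55 to 7.25) and 9.79 CPM (6.82 to 13.6). On the log2 scale it lay below Mirlet7g by a mean ratio of -9.22 ± 0.27 (SD, n = 2). Its 5' arm is encoded once among the 1005 RefSeq hairpins but differs from let-7c, which is encoded at more than 1 locus, by 1 base (G17A from let-7b to let-7c). Whether reads of let-7b were lost as multimapping was not tested, since it depends on alignment settings not given in the sources used here.

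The 5 genes whose 5' arm is encoded at several loci together had 364 counts in replicate 1 and 427 in replicate 2, or 102 and 119 CPM. Single-copy forms thus made up 98.2% (98.0 to 98.4) of the let-7 counts in replicate 1 and 98.8% (98.7 to 98.9) in replicate 2. Mirlet7f-2 (chromosome X, 151912346 to 151912428, in an intron of Huwe1, like Mir98) was the highest of them, with 210 and 251 counts, or 58.6 and 70.2 CPM. Mirlet7c-1 (chromosome 16, 77599657 to 77599750, in an intron of Mir99ahg) had 56 and 64 counts. Mirlet7a-1 (chromosome 13, 48538179 to 48538272, in an exon of 6720427I07Rik) had 51 and 64 counts, and Mirlet7a-2 (chromosome 9, 41536716 to 41536811, in an intron of the noncoding gene 3110039I08Rik) had 45 in each library. These 3 genes did not differ beyond counting error: log2 ratios of Mirlet7c-1 to Mirlet7a-1 were 0.13 (-0.44 to 0.71) and 0.00 (-0.52 to 0.52), and to Mirlet7a-2 were 0.31 (-0.28 to 0.91) and 0.50 (-0.06 to 1.09). Mirlet7c-2 (chromosome 15, 85706603 to 85706697, in an exon of Lncppara) had 2 and 3 counts, at or below the level of 3 counts (0.838 and 0.839 CPM) that a count of 0 would allow. These counts set no limit on the let-7a, let-7c and let-7f sequences themselves, because a read that matches several loci was counted at none.

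Ordered by mean CPM, the members ran Mirlet7g, Mirlet7i, Mirlet7d, Mir98, Mirlet7f-2, Mirlet7c-1, Mirlet7a-1, Mirlet7a-2, Mirlet7b and Mirlet7c-2. Dividing by hairpin length, 83 to 108 bases, left this order as it was. Lengths this close together could hardly have changed it. Among the 8 member forms, the levels differed between sequences near to and far from another form. The 4 genes whose 5' arm lay at least 2 mismatches from every other form had 227 to 3240 CPM in replicate 1 and 343 to 5259 CPM in replicate 2. The 6 genes whose 5' arm lay 1 mismatch from another form had 0.558 to 58.6 CPM and 0.839 to 70.2 CPM, so the ranges did not overlap in either library. This describes 10 genes that share sequence and libraries, and the part of uncounted multimapping reads in it was not tested. The closest other sequence to let-7i in the RefSeq hairpins was let-7j (Mir7j), 1 mismatch away, and Mir7j itself had 23 and 54 counts. With let-7j counted as a form, Mirlet7i joins the genes at 1 mismatch, and the ranges overlap in both libraries. All of the 6 genes above but Mirlet7b have a 5' arm encoded at several loci, so distance and copy number are largely the same split. Outside let-7, the 5' arms of Mir99a and Mir100 lay 1 mismatch from each other, and these genes had 20709 ± 5259 and 8787 ± 2099 CPM.

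**Figure D2:**
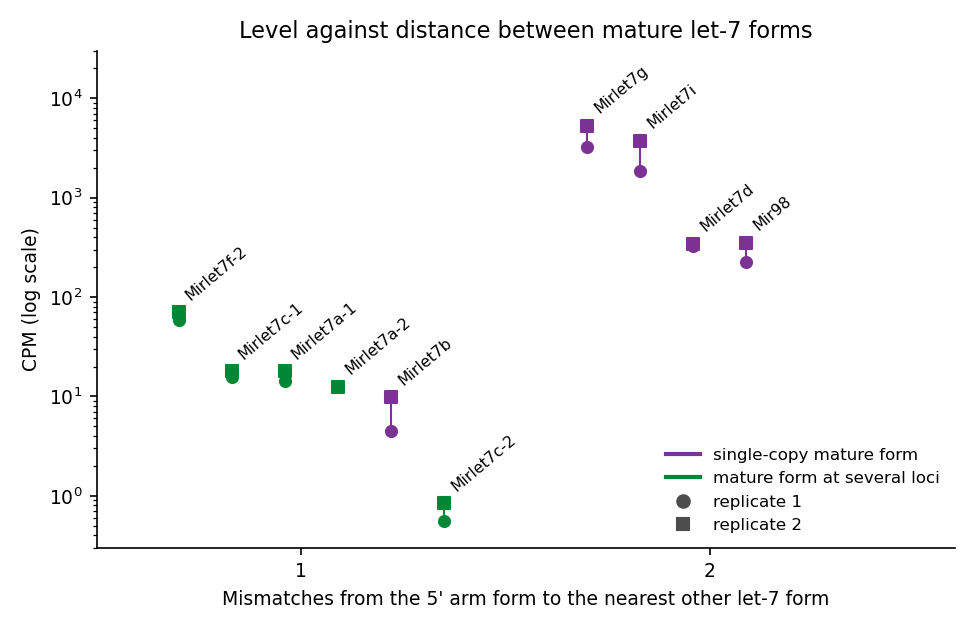
CPM (log scale) of each let-7 gene against the number of mismatches from its 5' arm form to the nearest other of the 8 forms; points are spread sideways for legibility, circles are replicate 1, squares replicate 2. The 4 genes at 2 mismatches lie at 227 CPM or above and the 6 genes at 1 mismatch at 70.2 CPM or below. All of these 6 but Mirlet7b are several-loci genes. The form let-7j, 1 mismatch from let-7i, is not among the 8, and with it Mirlet7i would stand at 1 mismatch.

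Neighbours at the same locus had unequal counts throughout. Mirlet7d was above Mirlet7a-1, 2.06 kb away on chromosome 13, by a log2 ratio of 4.36 ± 0.18 (SD, n = 2). In Huwe1, Mir98 was above Mirlet7f-2, 785 bases away, by 2.13 ± 0.27. Mirlet7b was above Mirlet7c-2, 621 bases away, by 2.84 ± 0.47, a value that rests on the 2 and 3 counts of Mirlet7c-2. In each of these pairs the gene whose 5' arm is encoded once had the higher count, so the difference between the neighbours and the loss of shared reads cannot be told apart.

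The miRNA genes of other families that lie beside let-7 genes had higher counts than those let-7 genes. Mir99a, Mir99b and Mir100 belong to the family of miR-100, and Mir125a, Mir125b-1 and Mir125b-2 are the mammalian relatives of lin-4, which like let-7 was found through its part in developmental timing in worms. On chromosome 16, Mir99a (60854 and 87364 counts, 20709 ± 5259 CPM) exceeded Mirlet7c-1, 656 bases away, by a log2 ratio of 10.23 ± 0.23, and Mir125b-2 (590 and 936 counts) exceeded it by 3.61 ± 0.34. On chromosome 9, Mir100 (26155 and 36736 counts, 8787 ± 2099 CPM) exceeded Mirlet7a-2, 5.21 kb away, by 9.40 ± 0.35, and Mir125b-1 (2464 and 4629 counts) by 6.20 ± 0.64. At the locus of Mirlet7e on chromosome 17, Mir99b had 22015 ± 1860 and Mir125a 3110 ± 413 CPM. The 6 neighbours together had 55825 ± 9303 CPM against 7751 ± 2854 CPM for the 10 let-7 genes. Since let-7a and let-7c reads can be placed at several loci, these ratios are ratios of uniquely placed reads, not of the miRNAs made from the transcripts. The same limit holds for Mir125b-1 and Mir125b-2, which encode the same mature 5' arm form.

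**Figure D3:**
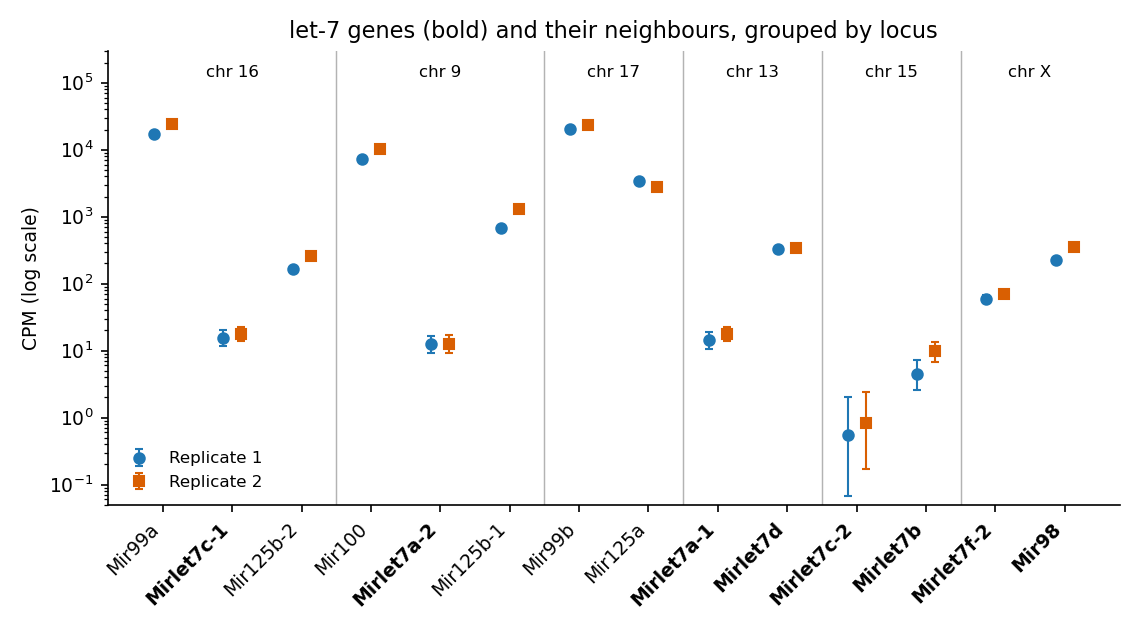
CPM (log scale) of let-7 genes (bold) and neighbouring miRNA genes, grouped by chromosome locus, with exact binomial intervals; circles are replicate 1 and squares replicate 2. Mir99a and Mir100 lie at 7302 CPM or above, and the let-7 genes beside them, Mirlet7c-1 and Mirlet7a-2, at 17.9 CPM or below.

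The 2 pools differed in let-7 level, and most of the difference lay in Mirlet7g and Mirlet7i, whose sum went from 5074 CPM in replicate 1 to 8945 CPM in replicate 2. The let-7 total was 5732 CPM in replicate 1 and 9769 CPM in replicate 2, a log2 ratio (replicate 2 minus replicate 1, prior count 1) of 0.77 (0.74 to 0.79). Without this pair the other 8 genes had 659 and 824 CPM, a log2 ratio of 0.32 (0.25 to 0.40). The single-copy forms, most of whose counts were those of Mirlet7g and Mirlet7i, had a ratio of 0.78 (0.75 to 0.80). The several-loci forms had one of 0.23 (0.03 to 0.44).

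Of the 10 members, 5 had at least 100 counts on average, as did 250 genes in all. Each of the 5 was higher in replicate 2, as were 33.2% of the 250 genes. Under library totals, however, the counting intervals of Mirlet7d (-0.04 to 0.19) and Mirlet7f-2 (-0.01 to 0.53) include 0. With TMM scaling all 5 were again higher, beside 51.6% of the genes, with DESeq2 size factors beside 50.8%, and scaled to all reads of the table beside 67.6%. Mirlet7i, alone of the 5 under library totals, was over 2-fold higher in replicate 2, with a log2 ratio of 1.01 (0.96 to 1.05) whose interval includes exactly 2-fold. Of all 250 genes, 1.2% were over 2-fold higher in replicate 2. With TMM or with DESeq2 size factors 2.4% of the genes were, and Mirlet7i was again the single let-7 gene among them. Scaled to all reads, 7.2% of the genes were, and 3 of the 5 let-7 genes passed: Mirlet7i at 1.48, Mirlet7g at 1.18 and Mir98 at 1.11. From the highest ratio down, Mirlet7i stood at place 3 of 250, Mirlet7g at place 7 (0.70), Mir98 at place 12 (0.64), Mirlet7f-2 at place 44 (0.26) and Mirlet7d at place 72 (0.07). The median of the 5 ratios was 0.64 beside a median of -0.27 over all 250 genes, whose ratios had an SD of 0.66 and a range of -3.39 to 1.86. TMM moved both medians up, to 0.92 and 0.02.

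**Figure D4:**
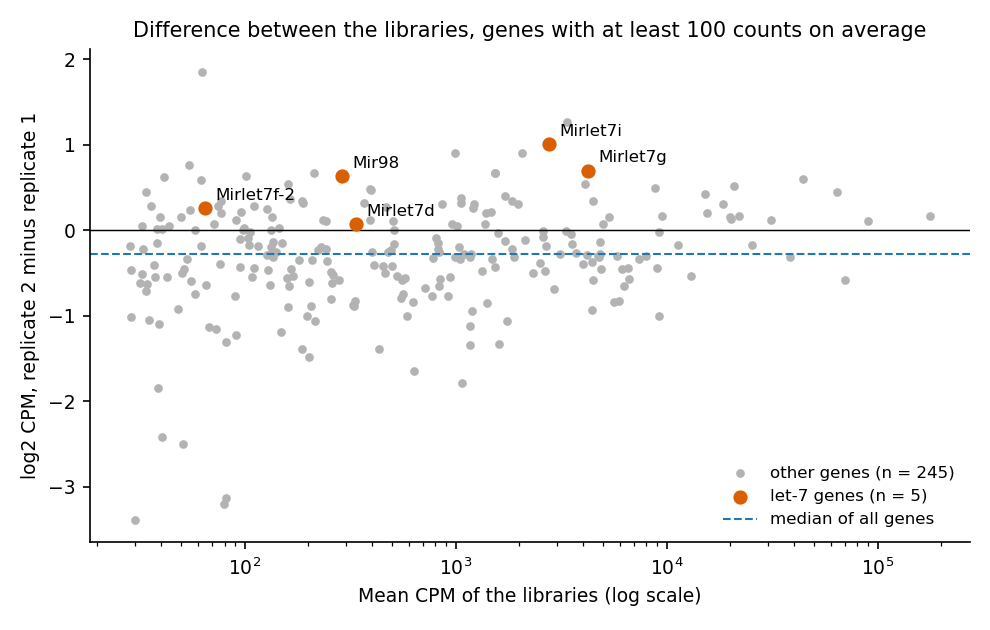
Difference in log2 CPM between the libraries (replicate 2 minus replicate 1) against mean CPM (log scale) for the 250 genes averaging 100 or more counts; orange points are the 5 let-7 genes and the dashed line is the median of all genes. All 5 let-7 genes lie above 0 and above the median of -0.27, and Mirlet7i, at 1.01, is the highest of them.

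Mirlet7b had a log2 ratio of 1.08 (0.24 to 2.08) from its 16 and 35 counts. Mirlet7c-1 at 0.19 (-0.35 to 0.74), Mirlet7a-1 at 0.32 (-0.22 to 0.89), Mirlet7a-2 at 0.00 (-0.63 to 0.63) and Mirlet7c-2, with 2 and 3 counts, had intervals that include 0. A difference between the pools in these genes was not detectable at this depth. The neighbours of let-7 genes had ratios of 0.91 (Mir125b-1), 0.67 (Mir125b-2), 0.52 (Mir99a), 0.49 (Mir100), 0.17 (Mir99b) and -0.27 (Mir125a), so 5 of 6 were higher in replicate 2, beside the 33.2% of all genes. The direction of Mir125a turned with the scaling: it was 0.02 with TMM and 0.0045 with DESeq2 size factors, and 6 of 6 neighbours were then higher, beside 51.6% and 50.8% of all genes.

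Other genes also differed between the pools, in both directions. Of all 250 genes, 27 were over 2-fold apart, and 3 of these were higher in replicate 2. The Mir302 genes of early embryonic cells, of which 4 (Mir302a to Mir302d) were summed, went from 5903 CPM in replicate 1 to 2151 CPM in replicate 2. Mir367, the last gene of their cluster, had 1 and 5 counts. The cartilage-associated Mir140 went from 1978 to 4767 CPM. Mir455, also of cartilage and added after its values were seen, had 3100 and 2484 counts, a log2 ratio of -0.32. The erythroid Mir451a went from 423 to 230 CPM and Mir122 from 24.8 to 5.59 CPM. Log2 ratios of the Hox-embedded genes were 0.46 (Mir196b), -0.31 (Mir10a) and -0.58 (Mir10b). Those of the mesenchymal Mir214 and Mir199b were 0.31 and 0.68. The share of unmapped reads also differed, 32.3% in replicate 1 and 18.6% in replicate 2. The part of any of these in the let-7 difference was not tested.

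By Euclidean distance of log2 CPM over the 2 libraries, the non-member genes nearest to Mirlet7g (of those that averaged 100 counts or more) were Mir181c (distance 0.12, with 3308 and 4838 CPM), Mir181d (0.29) and Mir143 (0.59). Nearest to Mirlet7i were Mir140 (0.39), Mir181b-2 (0.58, a gene whose mature form is encoded at more than 1 locus) and Mir324 (0.72). With 2 libraries, this measure reflects level and 1 difference and no more.

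The part of the hairpin between the arms, 23 to 36 bases long, was searched on the RNA strand for GGAG and for UGAU, another stretch reported in let-7 loops bound by LIN28. The hairpins of the 2 genes with the most counts and of Mirlet7b are printed to show the position, with GGAG in capitals where it lies between the arms.

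Mirlet7g: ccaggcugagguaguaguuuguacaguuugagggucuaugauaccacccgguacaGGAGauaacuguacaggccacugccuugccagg
Mirlet7i: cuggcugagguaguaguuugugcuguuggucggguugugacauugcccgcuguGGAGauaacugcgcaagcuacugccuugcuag
Mirlet7b: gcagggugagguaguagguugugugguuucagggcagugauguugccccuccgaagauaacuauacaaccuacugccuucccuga

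GGAG was found in 7 of 10 members, in each case 3 or 4 bases before the 3' arm, and not in Mirlet7b, Mirlet7c-2 and Mir98. It was found in 8.07% of 644 RefSeq hairpins with both arms annotated, and in 7 of 50 (14.0%) of those with a loop of 23 to 36 bases outside the let-7 family. UGAU was found in Mirlet7b and Mirlet7g, beside 6.06% of the 644 hairpins and 3 of the 50 (6.0%) with loops of that length outside let-7. The 3 members without GGAG were Mir98 at 290 ± 88.8 CPM, Mirlet7b at 7.13 CPM and Mirlet7c-2 at 0.699 CPM. The 7 with it ranged from Mirlet7a-2 at 12.6 CPM to Mirlet7g at 4249 CPM. Of the 3 without it, Mir98 lay within that range, and Mirlet7b and Mirlet7c-2 lay below it. A match of letters is not evidence of binding.

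Other mouse miRNAs carry the let-7 seed at bases 2 to 8. Mir1961 and let-7k (Mir7k) share GAGGUAG and had no sense count in either library, which allows up to 0.838 and 0.839 CPM. In let-7j the last base of the seed differs (GAGGUAU).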

How the data were processed

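The deposited values are raw counts per miRNA gene, in 3 strand settings (both, sense, antisense), plus 4 rows for reads given to no gene, which stayed out of all totals. Per the deposited readme texts, reads were aligned to mm10 and counted over GENCODE M4, 1 alignment per library. Aligner, counter and trimming: not given in the sources used here. Sense counts were used. Reads totalled 10064833 and 7218612, of which 21.9% and 25.4% were multimapping. Of 1973 identifiers, 1894 matched GENCODE M21, which gave symbols, coordinates (1-based) and hosts on the same strand. Sequences are from RefSeq GRCm38.p6 (1005 hairpins); mismatches were counted without gaps. CPM used library totals; scaling by edgeR 4.0.16 TMM and DESeq2 1.42.0 size factors, both strands, all reads, a prior count of 5, other count filters and single libraries were alternatives. Python 3.11.15, numpy 2.4.6, pandas 2.3.3, scipy 1.17.1 and R 4.3.3 were used. Named are the members, their locus neighbours, seed sharers, the 3 genes nearest to Mirlet7g and Mirlet7i, and fixed tissue markers. Members and lists were chosen with earlier results of these data known.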

Additional observations from a re-analysis of the deposited data

How the results depend on the processing

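The values checked were the let-7 total, the single-copy share, the neighbour ratios and the count of genes over 2-fold. Of their 50 alternative values, 43 stayed within the SD of the replicates, the counting interval or, for counts of genes, 1.5 times. None of the log2 ratios among them changed sign, which levels, shares and counts of genes cannot do. Of the 43, 20 left out a replicate, which with 2 libraries cannot move a mean by a whole SD. Counting both strands could also hardly move a value, since antisense counts were 0 or 1 per library at each let-7 gene and neighbour. Scaled to all reads of the table in place of those in genes, the let-7 total was 3440 CPM. Its log2 ratio between the libraries was 1.06 with TMM, 1.05 with DESeq2 size factors and 1.25 per all reads. The ratio of Mirlet7b to Mirlet7c-2 was 1.95 with a prior count of 5. The count of all genes over 2-fold apart, 27 of 250, was 54 with at least 10 counts on average and 206 of 1973 with no filter. These looser filters take in more genes, so the counts are not of the same set. With Mirlet7b counted among the several-loci forms the single-copy share stayed within the spread. Leaving out a replicate gave no value for the differences between libraries, which need both. No paired analysis was possible because there was 1 group. Depth limits the genes under 100 counts.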
